A study of Mus musculus with 24 samples.

Results

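Pck1, G6pc, Fbp1, Pcx, Ppargc1a, Foxo1, Insr, Irs1, Irs2 and Igfbp1 are 10 genes of hepatic glucose production and of the insulin signal that restrains it. They were taken by symbol from a liver expression table of 18171 genes, and all 10 passed the filter on low values that left 10532 genes for testing (an FPKM, fragments per kilobase of transcript, scaled to the library's mapped fragments, of at least 1 in at least 6 libraries). The table held liver RNA of C57BL/6 mice in 24 libraries, 12 of mice that overexpressed a form named L2 delta13 (here L2d13) and 12 of wild-type (WT) mice. The name matches that of a Loxl2 splice form, Loxl2 being a secreted lysyl oxidase, but the labels leave it unexplained. Sample names carry the digit 2 or 4, which gave 4 groups of 6 libraries: L2d13 and WT of set 2, and L2d13 and WT of set 4. The meaning of the digit, the promoter behind the overexpression, and the age, sex and feeding state of the mice are not given in the labels used here. Running numbers in the sample names form a separate block in each group, so genotype within a set cannot be told apart from whatever they follow. Separate animals are not stated either. The p-values therefore rest on the spread among these samples, part of which may be technical.

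During fasting the liver makes glucose from lactate, amino acids and glycerol. Pyruvate carboxylase (Pcx) turns pyruvate into oxaloacetate, cytosolic phosphoenolpyruvate carboxykinase (Pck1) turns that into phosphoenolpyruvate, fructose bisphosphatase (Fbp1) removes a phosphate further along, and the catalytic subunit of glucose-6-phosphatase (G6pc) releases free glucose. Glucagon acts through cyclic AMP and CREB to raise Pck1, G6pc and the coactivator Ppargc1a. The forkhead factor FOXO1 binds promoters such as those of G6pc and Igfbp1, and insulin, through its receptor (Insr), the adaptors Irs1 and Irs2 and the kinase AKT, sends FOXO1 out of the nucleus. Igfbp1 is a secreted binding protein for insulin-like growth factors and a classical readout of low insulin action in hepatocytes.

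To show the elements through which these signals are known to act, 3 promoters are printed, of the target whose level differed most between groups (Igfbp1) and of the enzymes whose levels are the textbook fasting readouts (Pck1 and G6pc). They are RefSeq sequences of GRCm38.p6, the 250 bases before the annotated start. Capitals mark a match to the core of the insulin response element (CAAAACA, or TGTTTTG on the other strand) in Igfbp1 and G6pc, and a match to the shorter cAMP response element (TGACG, or CGTCA on the other strand) in Pck1.
Igfbp1 chr11:7197537-7197786 plus strand: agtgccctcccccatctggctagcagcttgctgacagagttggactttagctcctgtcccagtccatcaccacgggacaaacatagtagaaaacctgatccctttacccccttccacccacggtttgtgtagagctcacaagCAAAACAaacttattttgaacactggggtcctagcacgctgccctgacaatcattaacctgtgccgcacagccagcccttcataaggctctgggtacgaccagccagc
G6pc chr11:101367466-101367715 plus strand: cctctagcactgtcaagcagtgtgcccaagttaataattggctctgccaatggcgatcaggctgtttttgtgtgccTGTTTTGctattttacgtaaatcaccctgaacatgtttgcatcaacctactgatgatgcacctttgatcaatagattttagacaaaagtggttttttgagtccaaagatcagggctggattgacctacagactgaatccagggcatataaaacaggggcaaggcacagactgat
Pck1 chr2:173152823-173153072 plus strand: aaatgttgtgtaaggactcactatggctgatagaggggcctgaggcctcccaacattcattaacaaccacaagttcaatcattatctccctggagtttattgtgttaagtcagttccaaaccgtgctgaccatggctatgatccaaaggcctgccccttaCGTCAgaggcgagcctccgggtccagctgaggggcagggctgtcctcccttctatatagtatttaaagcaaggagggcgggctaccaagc
The match in Igfbp1 lay at positions -108 to -102 from the start, that in G6pc at -174 to -168 and that in Pck1 at -90 to -86. Among 32851 mouse promoter windows of the same length, CAAAACA was found on either strand in 5.56% and TGACG in 17.8%. Of the 10 genes, 9 had a window in the table. CAAAACA was found in 4 of them (G6pc, Igfbp1, Irs1 and Irs2) and TGACG in 3 (Irs1, Pck1 and Ppargc1a). The forkhead core GTAAACA, searched also as its complement TGTTTAC, was found in 3.17% of all windows and in 0 of the 9. It shares letters with CAAAACA, and a short match is not evidence of a bound site.

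Of the 10 genes, Fbp1 and Pcx were higher and Foxo1 was lower in L2d13 livers over both sets, and the other 7 did not pass the test. Igfbp1 was higher in L2d13 in set 2, where its level was 2.19-fold that of WT. In set 4 it was not called, at a log2 difference of -0.68. The call of Foxo1 held in every setting tried over both sets. Those of Fbp1 and Pcx, and that of Igfbp1 in set 2, were lost within 18 of the libraries and with other scalings. The calls come from limma's moderated test on log2(FPKM + 1) with Benjamini-Hochberg adjustment over all 10532 genes, at an adjusted p under 0.05. The share of all genes called by this rule over both sets was 30.8%, with 25.9% higher and 4.86% lower, so 3 of 10 is close to that background. The median log2 difference of all genes was 0.12. Scaling each library by its median ratio to the others moved that median to 0.00 and the calls over all genes from 2730 higher and 512 lower to 1128 and 1162, so small positive differences are to be read against 0.12.

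Before the genes are taken in turn, a few facts on the libraries are needed. The gene Loxl2 had 1.501 ± 0.384 FPKM (SD, n = 12) in L2d13, compared with 0.680 ± 0.254 in WT (SD, n = 12), and its annotated copy Gm21451 ranged from 40.63 to 266.18 in the L2d13 libraries against 0.03 to 1.27 in the WT libraries. In their correlation with the rest 6 libraries stood apart, namely L2d13 set 2 replicate 3, WT set 2 replicate 6 and WT set 4 replicates 9 to 12. Their median correlation with the other libraries was 0.925 to 0.969, against 0.972 to 0.980 in the other 18 libraries. As 5 of the 6 were WT, values within the 18 libraries are given where they change a call. Among those 18, WT of set 4 held only 2 libraries. FPKM does not give read totals, and the depth of each library is unknown. The 8 hepatocyte markers summed to between 27780 and 57639 FPKM in each library. The lowest was L2d13 set 2 replicate 3, which also had the highest sums of Kupffer, endothelial, stellate, cholangiocyte, lymphoid and blood markers. Alb was the largest part of the hepatocyte sum, with group means from 25569 FPKM in L2d13 set 2 to 32389 in WT set 2. Its mean was lower in L2d13 in both sets, while that of Cps1 was higher, so these markers did not move together. The 5 exocrine pancreas markers summed to 81.3 FPKM in L2d13 set 2 replicate 1 and to at most 8.01 elsewhere. Of 8 endothelial markers 5 were called higher in L2d13 (sums of 35.25 to 188 against 23.38 to 101), as were 3 of 8 Kupffer cell markers (38.26 to 173 against 21.73 to 137), and none of these 16 markers was at 0 in any library. Within the 18 libraries 1 endothelial marker and 0 Kupffer markers were called by the same limma test. In that fit 14.9% of all genes were called higher and 4.76% lower over both sets. The part of these markers in the results below was not tested. In bulk liver, fewer cells of a type and less RNA per cell cannot be told apart.

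**Figure D1:**
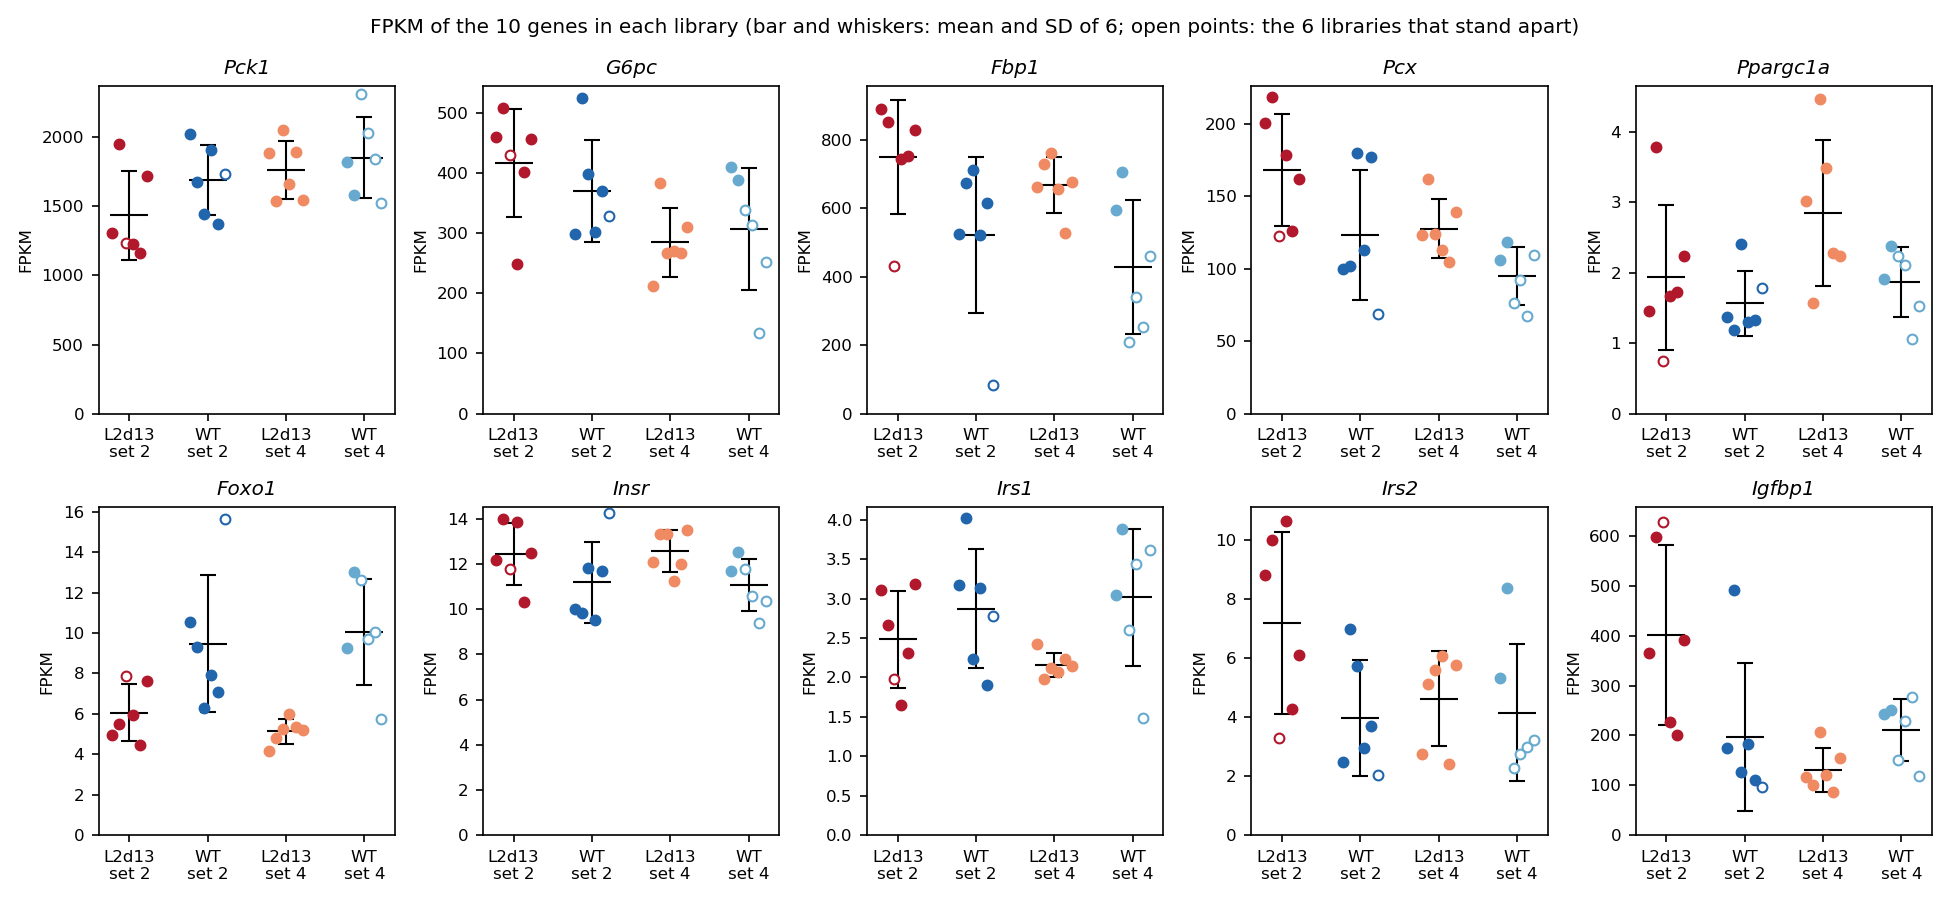
FPKM (vertical axes, linear from 0) of each of the 10 genes in the 24 libraries by genotype and set (horizontal axes). Each point is 1 library, lines and whiskers are the mean and SD of 6, and open points are the 6 libraries that stood apart: Fbp1 lay between 83.31 and 462 FPKM in those 6 and between 520 and 889 in the other 18.

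The 4 enzymes stood high in the liver transcriptome. Averaged over the 24 libraries, Pck1 had 1687 FPKM (rank 47 of all genes), Fbp1 592 (rank 125), G6pc 344 (rank 238) and Pcx 129 (rank 590). FPKM is a level per length, so these levels can be set beside each other. The ranges of neighbours in that order overlapped for Fbp1 and G6pc and for G6pc and Pcx, while the lowest Pck1 value (1165) was above the highest Fbp1 value (889).

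Fbp1 had 709 ± 132 FPKM (SD, n = 12) in L2d13, compared with 474.5 ± 209 in WT (SD, n = 12). The log2 difference was 0.76 ± 0.26 (SE), or 1.69-fold with an interval of 1.16 to 2.46, and passed the limma test with an adjusted p of 0.0316. Of the 12 L2d13 libraries, 11 were above the WT mean of their set. In set 2 Fbp1 ranged from 431 to 889 FPKM in L2d13 (median 791) and from 83.31 to 711 in WT (median 569.7). In set 4 it ranged from 526.1 to 762 in L2d13 (median 668) and from 208 to 705 in WT (median 401). The groups overlapped in both sets, and the low values were those of the 6 libraries that stood apart. After subtracting group means, the level of Fbp1 had a correlation of 0.89 over the 24 libraries with the library's median correlation to the others. This is a description over libraries that share this feature with many genes. Within the 18 libraries the log2 difference was 0.28 ± 0.10 (SE), with an adjusted p of 0.0547 in limma. The call was also lost with the library length trend as a covariate, a setting chosen after seeing the data (0.62, adjusted p 0.0661), without WT set 4 replicate 9 or 11, without the filter on low values (adjusted p 0.0582), and with median-of-ratios scaling (log2 difference 0.62, adjusted p 0.122) or quantile normalization (adjusted p 0.0608). Within single sets Fbp1 differed by 0.75 (adjusted p 0.186) and 0.77 (adjusted p 0.178). It was called in set 2 within the 18 libraries, at 0.42 (adjusted p 0.0151), and in set 4 without WT set 2 replicate 6 (adjusted p 0.0255). Leaving out that set 2 library keeps the set 4 difference at 0.77 and changes only the shared spread and the adjustment.

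Pcx had 148 ± 36.5 FPKM (SD, n = 12) in L2d13, compared with 109 ± 36.4 in WT (SD, n = 12). The log2 difference of 0.46 ± 0.14 (SE), or 1.38-fold, had an adjusted p of 0.0146 in limma, and 11 of 12 L2d13 libraries were above the WT mean of their set. In set 2 Pcx ranged from 123 to 219 FPKM in L2d13 (median 171) and from 69.07 to 179.7 in WT (median 108), and in set 4 from 105 to 162 (median 124) and from 67.38 to 119 (median 99.2). The groups overlapped, with 2 of 6 L2d13 libraries above every WT library in set 2 and 4 of 6 in set 4. The difference was alike in size in the sets, at 0.49 (adjusted p 0.104) and 0.44 (adjusted p 0.149), neither of which passed the limma test alone. Without WT set 2 replicate 3 or 5 the set 2 difference was called, at up to 0.61. Within the 18 libraries it was 0.33, with an adjusted p of 0.112, and with median-of-ratios scaling 0.32, with an adjusted p of 0.149. Within groups, Pcx also followed a library feature, the trend of expression with transcript length, with a correlation of 0.76 over 24 libraries. With that trend as a covariate its difference was 0.34 (adjusted p 0.0154).

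Pck1 and G6pc, the enzymes most often read as the output of fasting signals, did not pass the test. Pck1 had 1600 ± 312 FPKM (SD, n = 12) in L2d13, compared with 1774 ± 274 in WT (SD, n = 12), a log2 difference of -0.16 with a 95% interval from -0.37 to 0.05 and an adjusted p of 0.240 in limma. In set 2 Pck1 ranged from 1165 to 1956 FPKM in L2d13 (median 1273) and from 1372 to 2025 in WT (median 1708). In set 4 the ranges were 1537 to 2053 (median 1773) and 1527 to 2313 (median 1834). In set 2, 4 of 6 L2d13 libraries lay below every WT library, and in set 4 none did.

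G6pc had 351 ± 99.6 FPKM (SD, n = 12) in L2d13, compared with 338 ± 95.3 in WT (SD, n = 12). The log2 difference was 0.06 with an interval from -0.26 to 0.38 (adjusted p 0.792 in limma), and it turned to -0.08 with median-of-ratios scaling and to -0.11 within the 18 libraries. In set 2 it ranged from 248.9 to 508 FPKM in L2d13 (median 442) and from 298 to 524.7 in WT (median 349), and in set 4 from 213 to 383 (median 268) and from 133 to 409 (median 326). These ranges overlapped in both sets. The intervals leave room for a change of G6pc of up to 1.31-fold upward or down to 0.837 of the WT level on the log2(FPKM + 1) scale. The transporter Slc37a4, which carries glucose-6-phosphate to the phosphatase, rose by a log2 difference of 0.75 (adjusted p 0.00102 in limma), from 95.5 ± 28.2 FPKM in WT to 160 ± 41.6 in L2d13 (SD, n = 12 each). It was named after its value was seen.

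Foxo1 had the smallest adjusted p of the 10 over both sets. It had 5.59 ± 1.14 FPKM (SD, n = 12) in L2d13, compared with 9.76 ± 2.91 in WT (SD, n = 12). In set 2 Foxo1 ranged from 4.45 to 7.86 FPKM in L2d13 (median 5.73) and from 6.27 to 15.64 in WT (median 8.62). In set 4 the ranges were 4.14 to 5.99 (median 5.24) and 5.72 to 13.0 (median 9.87). All 12 L2d13 libraries were below the WT mean of their set, and 4 of 6 in set 2 and 5 of 6 in set 4 were below every WT library. The log2 difference was -0.68 ± 0.13 (SE), so that WT was 1.60-fold higher, and the adjusted p was 0.000411 in limma. Over both sets the call held under every setting tried and with each library left out in turn (adjusted p 0.000158 to 0.000973), with -0.65 within the 18 libraries and -0.80 with median-of-ratios scaling. Foxo1 too followed a library feature. After subtracting group means, it had a correlation of -0.61 over the 24 libraries with the library's median correlation to the others. It averaged 10.3 FPKM in the 6 libraries that stood apart, 5 of them WT, and 6.82 in the other 18.

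Within set 4 the difference of Foxo1 was -0.82 ± 0.18 (SE), with an adjusted p of 0.00470 in limma, and within set 2 it was -0.54 ± 0.18, with an adjusted p of 0.0479. In set 4, 13.3% of all genes were called (10.3% higher and 2.97% lower), and of the 10 genes 1 was called, Foxo1. In set 2, 15.1% were called (13.0% higher and 2.13% lower), and of the 10 genes 2 were called, Igfbp1 higher and Foxo1 lower. The set 2 call of Foxo1 sat at the threshold and was lost in 17 of 24 fits that left out a library. These included fits without a set 4 library, as for each of L2d13 set 4 replicates 7 to 12. Such fits leave the set 2 difference as it is and change only the shared spread and the adjustment. The call was also lost in the fit without a filter (adjusted p 0.0749) and in that with a replicate block (adjusted p 0.0696). The difference between the sets was -0.28, with an interval from -0.81 to 0.25. Foxo3 and Foxo4, its relatives in liver, had 4.58 and 9.33 FPKM in L2d13 and 5.18 and 9.38 in WT, with log2 differences of -0.15 (adjusted p 0.196) and -0.01 (adjusted p 0.910) in limma. With median-of-ratios scaling Foxo4 was called lower, at -0.14 (adjusted p 0.0470), and Foxo3 had -0.26 (adjusted p 0.0741), next to -0.80 for Foxo1.

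Ppargc1a, which encodes the coactivator PGC-1alpha and was the lowest of the 10, averaged 2.05 FPKM over the 24 libraries. It ranged from 0.74 to 3.78 in L2d13 (median 1.70) and from 1.19 to 2.40 in WT (median 1.35) of set 2, and from 1.57 to 4.46 (median 2.65) and from 1.05 to 2.37 (median 2.01) in set 4. The log2 difference of 0.27, with an interval from -0.01 to 0.56, did not pass the limma test (adjusted p 0.136). It did without L2d13 set 2 replicate 3, at 0.34 (adjusted p 0.0367), the library with the lowest value. As its FPKM was close to the pseudocount, the fold on this scale is compressed.

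**Figure D2:**
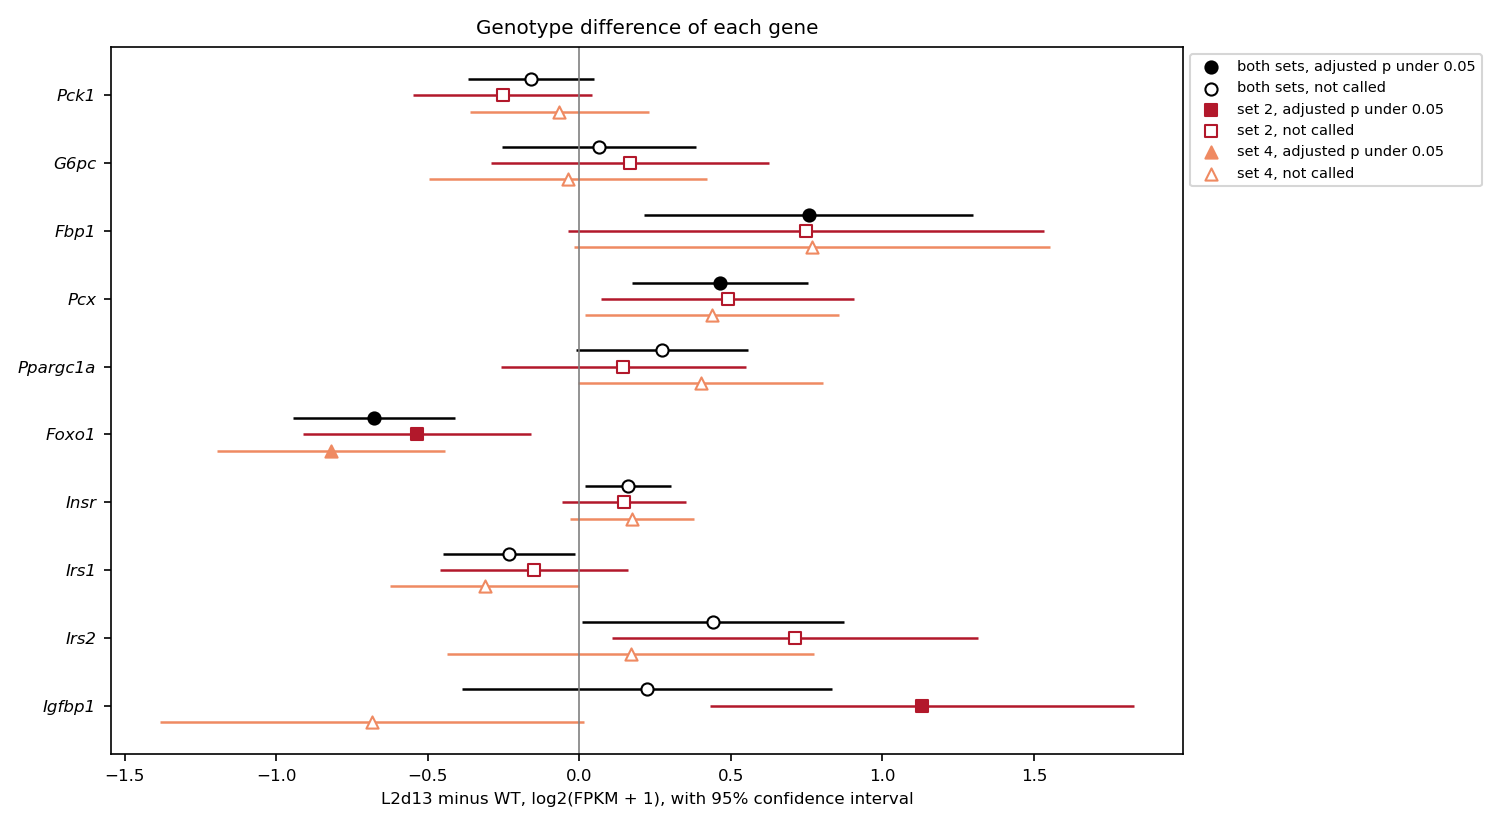
Difference of L2d13 minus WT in log2(FPKM + 1) (horizontal axis) for each gene (vertical axis), over both sets and within each set, with 95% confidence intervals; filled symbols have an adjusted p under 0.05 in limma. Foxo1 lies left of 0 in all 3 comparisons, Fbp1 and Pcx right of 0, and Igfbp1 lies at 1.13 in set 2 and -0.68 in set 4.

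The insulin receptor and its adaptors gave no call over both sets. All 3 were tested by limma and had an unadjusted p under 0.05 (0.0283, 0.0379 and 0.0466). Such values were common, as 6 of the 10 genes had one and 30.8% of all genes passed even the adjusted threshold. Insr varied least of the 10, with 12.5 ± 1.13 FPKM (SD, n = 12) in L2d13, compared with 11.1 ± 1.44 in WT (SD, n = 12), and a log2 difference of 0.16 ± 0.07 (SE, adjusted p 0.0778), close to the median of all genes. In set 2 it ranged from 10.31 to 14.0 FPKM in L2d13 (median 12.3) and from 9.52 to 14.3 in WT (median 10.8), and in set 4 from 11.2 to 13.5 (median 12.7) and from 9.38 to 12.5 (median 11.1). The ranges overlapped in each set. Without WT set 4 replicate 8, L2d13 set 2 replicate 5 or WT set 2 replicate 6, Insr was called higher over both sets, with differences up to 0.19.

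Irs1 and Irs2, the substrates that the receptor phosphorylates, lay on opposite sides of 0. Irs1 had 2.32 ± 0.458 FPKM (SD, n = 12) in L2d13, compared with 2.95 ± 0.783 in WT (SD, n = 12), a log2 difference of -0.23 ± 0.11 (SE, adjusted p 0.0969). Its 6 L2d13 libraries of set 4 lay close together, from 1.98 to 2.42 FPKM (median 2.13), inside the WT range of 1.49 to 3.89 (median 3.25). In set 2 Irs1 ranged from 1.65 to 3.18 in L2d13 (median 2.49) and from 1.90 to 4.03 in WT (median 2.96). With median-of-ratios scaling Irs1 was called lower, at -0.33 (adjusted p 0.0226), as it was with quantile normalization, at -0.35 (adjusted p 0.0188), and without WT set 4 replicate 11 or WT set 2 replicate 5. In set 4 alone it was -0.31 (adjusted p 0.166), and -0.44 (adjusted p 0.0426) without WT set 4 replicate 11.

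Irs2 had 5.90 ± 2.70 FPKM (SD, n = 12) in L2d13, compared with 4.06 ± 2.05 in WT (SD, n = 12), a log2 difference of 0.44 ± 0.21 (SE, adjusted p 0.113). In set 2 it ranged from 3.28 to 10.66 FPKM in L2d13 (median 7.46) and from 2.02 to 6.98 in WT (median 3.33), with 3 of 6 L2d13 libraries above every WT library. In set 4 the ranges were 2.40 to 6.06 (median 5.36) and 2.27 to 8.37 (median 3.12), which overlapped fully. The set 2 difference was 0.71, with an interval from 0.11 to 1.32 (adjusted p 0.102). Leaving out L2d13 set 2 replicate 3 (0.88, adjusted p 0.0448) made that a call, and leaving out WT set 4 replicate 8 made the difference over both sets one (0.55, adjusted p 0.0320). Within groups, Irs2 followed the library's trend with transcript length, with a correlation of 0.78 over 24 libraries. With that trend as a covariate, a setting chosen after seeing the data, the set 2 difference was 0.69 with an adjusted p of 0.0143, while the set 4 difference turned to -0.21.

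The ratio of Irs2 to Irs1 within a library combines both. It was 2.63 ± 1.44 (SD, n = 12) in L2d13, compared with 1.43 ± 0.659 in WT (SD, n = 12), with single libraries from 1.07 to 6.46 and from 0.727 to 2.57. The ratio is given as a description, and its ranges overlapped.

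Igfbp1 varied most of the 10 between libraries of a group, with a within-group coefficient of variation of 52.3%, against 11.5% for Insr. In set 2 it ranged from 201 to 628 FPKM in L2d13 (median 378, mean 401 ± 180.5, SD, n = 6) and from 96.03 to 492.4 in WT (median 151, mean 198 ± 149). In set 4 it ranged from 86.63 to 207 in L2d13 (median 119, mean 131 ± 44.1, SD, n = 6) and from 118 to 277 in WT (median 236, mean 211 ± 62.6). Every L2d13 library of set 2 was above the WT mean of that set, and every L2d13 library of set 4 was below theirs. The L2d13 ranges overlapped the WT ranges in both sets, with WT set 2 replicate 2 (492.4 FPKM) far above the other 5 WT libraries of its set.

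The genotype difference of Igfbp1 was 1.13 ± 0.34 (SE) in set 2, or 2.19-fold with an interval of 1.35 to 3.56, with an adjusted p of 0.0267 in limma. In set 4 it was -0.68 ± 0.34 (adjusted p 0.178), and over both sets 0.22 ± 0.30 (adjusted p 0.603). The difference between these effects, set 4 minus set 2, was -1.82 ± 0.48 (SE), with an unadjusted p of 0.000900 and an adjusted p of 0.205. By that test 0.152% of all genes were called (0.0285% higher and 0.123% lower) and 0 of the 10 by limma, with 1 of the 10, Igfbp1, at an unadjusted p under 0.05. Without WT set 2 replicate 2 the difference between effects was -2.13 and its adjusted p was 0.0243. A difference of the genotype effect between the sets is thus not called with all libraries.

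The set 2 call of Igfbp1 depended on single libraries and on scaling. It was lost without WT set 2 replicate 3, 5 or 6 or L2d13 set 2 replicate 2 or 3, with differences from 0.97 to 1.05 and adjusted p from 0.0515 to 0.0691. It was also lost with median-of-ratios scaling (0.94, adjusted p 0.0955), with quantile normalization (1.03, adjusted p 0.0589) and within the 18 libraries (0.82, adjusted p 0.102). L2d13 set 2 replicate 3, with the highest Igfbp1 value of 628 FPKM, was the library with the lowest hepatocyte marker sum. Without L2d13 set 2 replicate 1, which held the exocrine pancreas markers, the difference was 1.13 (adjusted p 0.0457).

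Within L2d13 livers Igfbp1 was lower in set 4 than in set 2, by a log2 difference of -1.54 ± 0.34 (SE), so that set 2 was 2.91-fold higher. The adjusted p was 0.0103 in limma, and the call held under every setting tried and with each library left out in turn (adjusted p 0.00319 to 0.0284). In this comparison 6.06% of all genes were called, 0.551% higher and 5.51% lower in set 4, and Igfbp1 was the 1 gene called of the 10. Endothelial and stellate cell markers moved with the same groups. The 8 endothelial markers summed to 90.53 to 188 FPKM in L2d13 set 2 and 35.25 to 81.97 in L2d13 set 4. The 8 stellate cell markers summed to 98.67 to 193 and 47.24 to 81.16, also without overlap. Most of that stellate sum was Dcn, with means of 98.3 FPKM in L2d13 set 2 and 52.6 in L2d13 set 4. The remaining stellate markers each averaged at most 3.95 FPKM in these groups. Sums of the other cell types overlapped, as for Kupffer cells (81.94 to 173 and 38.26 to 145). The median of the blood markers was lower in set 2 (727) than in set 4 (878). The part of these markers in the difference of Igfbp1 was not tested. In WT livers the sets of Igfbp1 differed by 0.28, with an interval from -0.42 to 0.98. By limma 0 of the 10 were called between the WT sets and 0 had an unadjusted p under 0.05, where 0.190% of all genes were called (0.0855% higher and 0.104% lower). Between the L2d13 sets G6pc had a difference of -0.54 (unadjusted p 0.0236, adjusted p 0.148), Pck1 one of 0.32 (adjusted p 0.183) and Ppargc1a one of 0.41 (adjusted p 0.202). The comparisons share libraries, as the L2d13 libraries of set 2 enter both the genotype test of set 2 and the test between the sets.

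**Figure D3:**
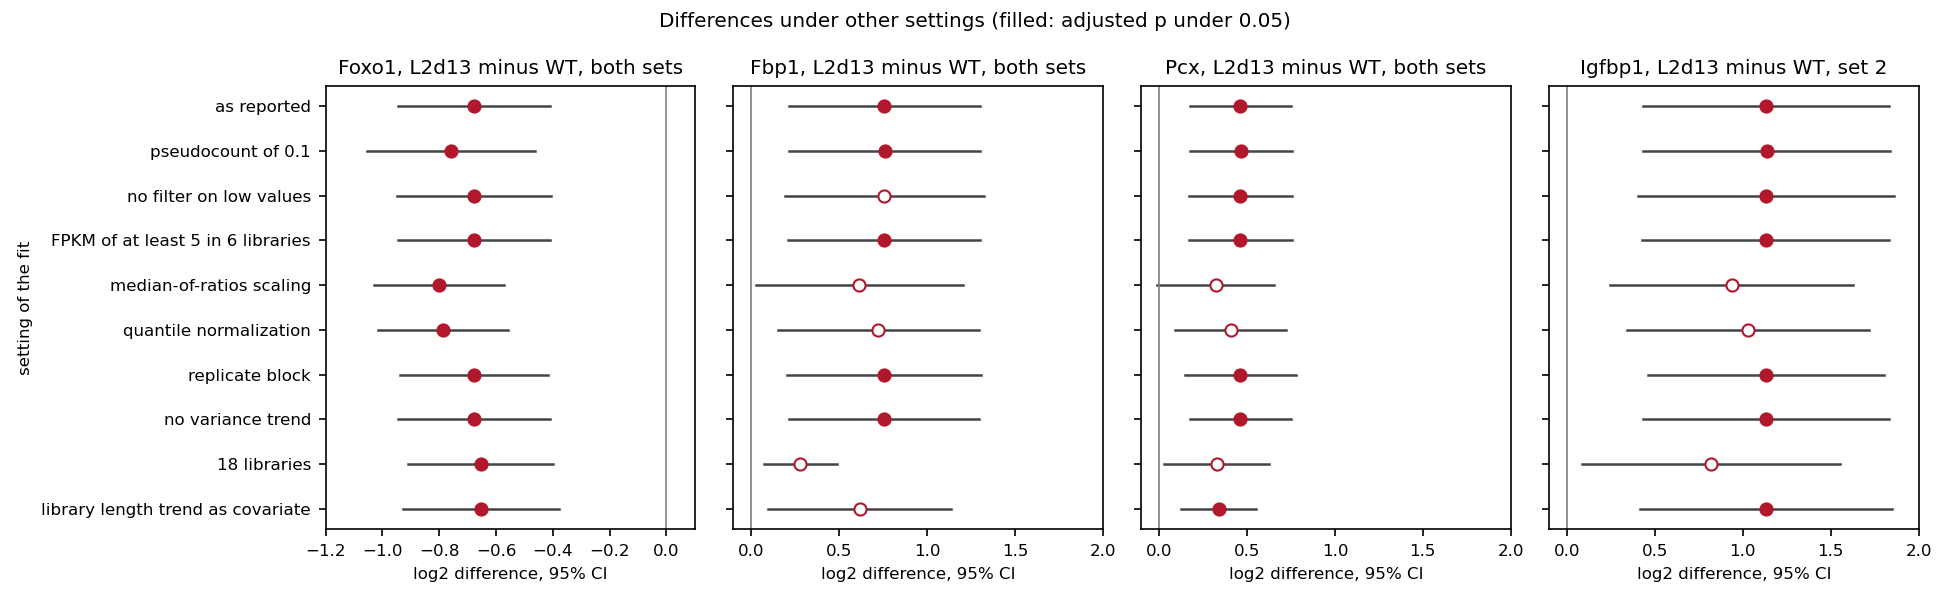
Log2 differences with 95% confidence intervals (horizontal axes) of Foxo1, Fbp1 and Pcx over both sets and of Igfbp1 in set 2, under each setting of the fit (vertical axis); filled points have an adjusted p under 0.05 in limma. Foxo1 is filled in all 10 settings, while Fbp1, Pcx and Igfbp1 are open with median-of-ratios scaling, with quantile normalization and within the 18 libraries.

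Genes around the 10 were counted in 7 lists chosen with earlier results of these data known. The counts are read against the shares of all genes called over both sets, 25.9% higher and 4.86% lower, or 10.7% and 11.03% with median-of-ratios scaling. Over both sets, 9 of 23 tested genes for the entry of precursors, transport and other enzymes of glucose production rose and 0 fell in L2d13 (median log2 difference 0.27, against 0.12 for all genes). With median-of-ratios scaling 6 rose and 2 fell. Got1, the cytosolic aspartate aminotransferase, rose from 187 ± 51.8 FPKM in WT to 360 ± 127 in L2d13 (SD, n = 12 each; log2 difference 0.92, adjusted p 0.000123 in limma). Gpt2, the mitochondrial alanine aminotransferase, rose by 0.68 (adjusted p 0.000136), and Slc25a11, the mitochondrial carrier of oxoglutarate and malate, by 0.52 (adjusted p 5.54e-05). These 3 kept their calls with both other scalings and within the 18 libraries.

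Among enzymes of the opposite direction, 3 of 7 tested glycolytic genes fell and 0 rose, where 4.86% and 25.9% of all genes did. Their median was -0.35, and with median-of-ratios scaling 5 were lower (11.03% of all genes). Pklr, the liver pyruvate kinase, fell by 0.79 (adjusted p 0.000230 in limma), and Pfkfb3, which makes the activator of phosphofructokinase, fell by 1.01 (adjusted p 0.000320). Pfkfb3 was low, at 1.04 FPKM in L2d13 and 3.43 in WT, close to the pseudocount.

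Of 28 tested genes of insulin signalling below the receptor, 6 rose and 1 fell (median 0.15), both below the shares of all genes (25.9% and 4.86%). With median-of-ratios scaling 1 rose and 2 fell, also below the shares of all genes (10.7% and 11.03%). Trib3, a pseudokinase that binds AKT, rose from 3.21 ± 1.28 to 7.71 ± 2.45 FPKM (SD, n = 12 each; log2 difference 1.06, adjusted p 2.39e-05 in limma) and kept its call in those settings. Akt2, the main AKT of liver, and Rptor, a subunit of mTORC1, rose by 0.32 (adjusted p 0.00329) and 0.29 (adjusted p 0.00406). With median-of-ratios scaling neither was called (adjusted p 0.0962 and 0.0710), nor was either within the 18 libraries. The gene that fell was Pik3r1, the regulatory subunit of PI3-kinase, at -0.35 (adjusted p 0.00454), named after its value was seen.

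Among 23 tested FOXO family members and fasting or FOXO targets, 7 rose and 4 fell (median 0.08), where 25.9% and 4.86% of all genes did. With median-of-ratios scaling 3 rose and 7 fell (10.7% and 11.03% of all genes). Called genes of the list went both ways in each case. Pnpla2, the adipose triglyceride lipase and a known FOXO1 target, rose from 48.7 ± 4.87 to 87.4 ± 14.6 FPKM (SD, n = 12 each; log2 difference 0.82, adjusted p 1.05e-06 in limma). Cpt1a, which admits fatty acids to mitochondria, rose by 0.94 (adjusted p 1.80e-05). Map1lc3b, the autophagosome protein LC3B, rose by 0.30 (adjusted p 0.000164) and was not called with median-of-ratios scaling (adjusted p 0.136). The 4 that fell, named after their values were seen, were Bcl6, a repressor of lipid genes (-1.59), Pdk4, the fasting-induced inhibitor of pyruvate dehydrogenase (-0.99), Klf15, a regulator of amino acid breakdown (-0.66), and Cat, catalase (-0.27).

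Of 20 tested genes of glucagon, cAMP and CREB signalling 4 rose, below the 25.9% of all genes, and 2 fell, where 4.86% of all genes did. With median-of-ratios scaling 1 rose and 5 fell (10.7% and 11.03% of all genes). Pde4b, a cAMP phosphodiesterase, was higher by 0.83 (adjusted p 0.000254 in limma), and Crem, a cAMP-responsive factor related to CREB, was lower by a log2 difference of -0.50 (adjusted p 0.0188). Pde4b was low, at 2.61 FPKM in L2d13 and 1.14 in WT, close to the pseudocount. Adcy9, an adenylate cyclase, was higher by 0.35 (adjusted p 0.00499) and not called with median-of-ratios scaling (adjusted p 0.0910). Of 20 regulators of the Pck1 and G6pc promoters 4 rose, below the 25.9% of all genes, and 3 fell, where 4.86% of all genes did. With median-of-ratios scaling 2 rose and 5 fell (10.7% and 11.03% of all genes). Cebpb, a factor of the acute phase and of Pck1, fell from 86.4 ± 34.8 to 37.3 ± 11.8 FPKM (SD, n = 12 each; log2 difference -1.13, adjusted p 0.000251). Foxa3 fell by 0.51 (adjusted p 0.00273) and Nr2f2 (COUP-TFII) rose by 0.60 (adjusted p 0.00145).

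Igfbp1's family was counted too. Of 7 tested other IGF genes and binding proteins 2 rose and 0 fell, close to the 25.9% and 4.86% of all genes. Their median of 0.12 was that of all genes too. Igfbp2, also made by hepatocytes, rose from 716 ± 175 to 1057 ± 293 FPKM (SD, n = 12 each; log2 difference 0.56, adjusted p 0.00770 in limma), with an adjusted p of 0.0571 within the 18 libraries. Igfbp3 rose by 0.53 (adjusted p 0.0220), with an adjusted p of 0.0520 with median-of-ratios scaling. Its difference was 0.97 in set 2 (adjusted p 0.00458) and 0.10 in set 4 (adjusted p 0.801), and the difference between these was not called (-0.88, adjusted p 0.418). Igfals, its partner in serum, had -0.21 (adjusted p 0.175).

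The 10 genes did not move as a block from library to library. After subtracting each group's mean, Pck1 and G6pc had a correlation of 0.01 over the 24 libraries and 0.00 over the 18. Fbp1 and Pcx had 0.75 and 0.58, and Fbp1 and Irs2 had 0.65 and 0.71, with the same sign in both. Fbp1 and Foxo1 had -0.58 over the 24 libraries but -0.13 over the 18, while Pcx and Insr had 0.28 and 0.84. These are descriptions over libraries that share depth and library features, and no test was made of them.

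**Figure D4:**
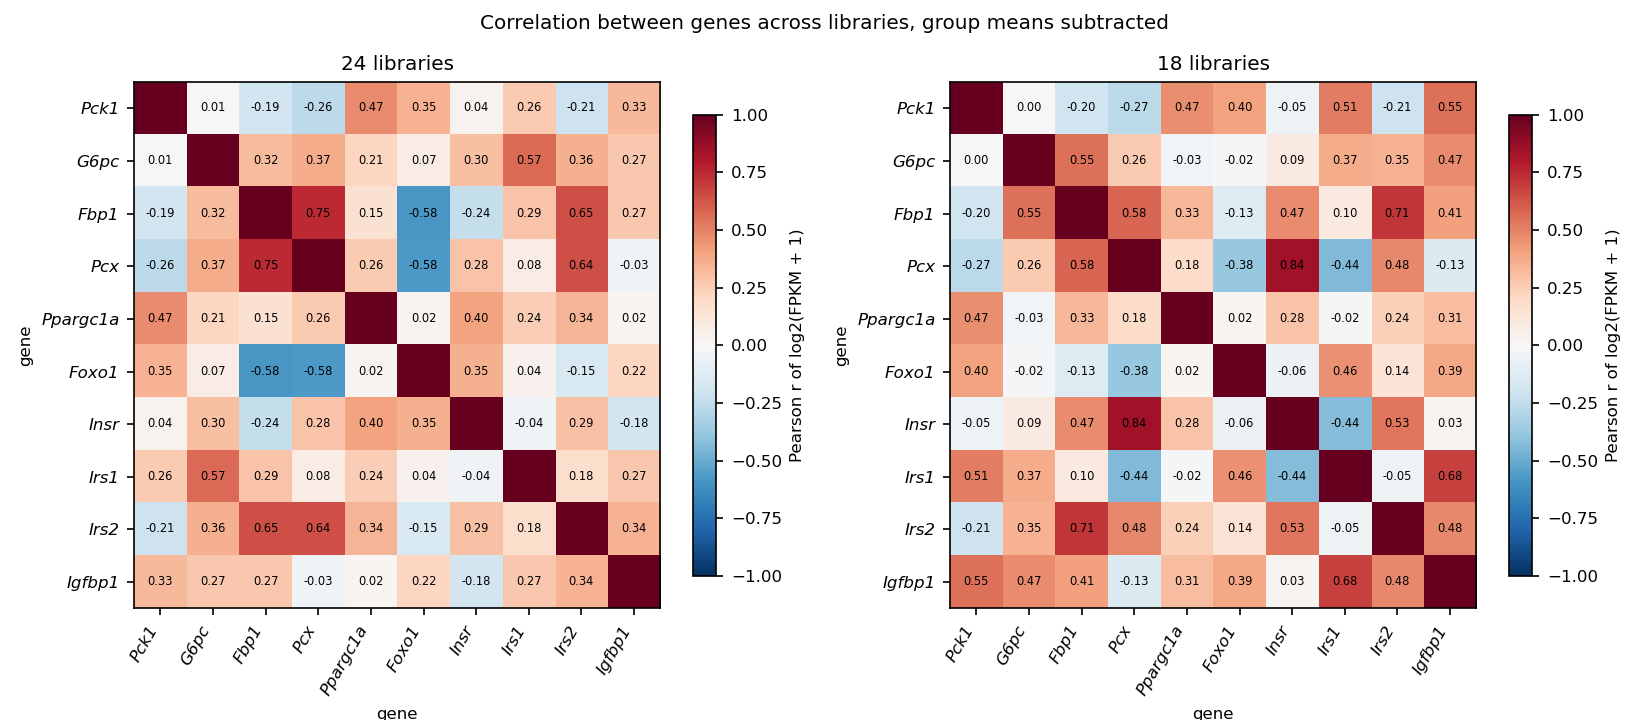
Pearson correlation of log2(FPKM + 1) between each pair of the 10 genes (both axes) across 24 libraries (left) and the 18 libraries (right), after each group's mean was subtracted; colour runs from -1 (blue) to 1 (red). Fbp1, Pcx and Irs2 form the block of highest values at the left, from 0.64 to 0.75, and Pck1 with G6pc is near 0 in both.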

How the data were processed

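TRIzol was used for the liver RNA and a BGISEQ-500 for sequencing, per the labels' protocols. HISAT, Bowtie2 and RSEM and the build GRCm38.p5 are named per the submitters' processing notes, and versions are not given in the sources used here. The FPKM values deposited by the authors were used as they stand (0 columns belonged to no sample), and identical libraries were not found. Symbols, from a RefSeq table of GRCm38.p6, matched 18040 of 18171 gene identifiers. Whether strand was used in counting is not given in the sources used here.

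Genes were kept if 6 or more libraries reached an FPKM of 1. Their log2(FPKM + 1) values went into limma 3.58.1 (R 4.3.3), variances following the mean. Genotype over both sets came from a fit with set as an additive term, and the other contrasts from a fit with 1 mean per group. Tests were two-sided and adjusted by Benjamini-Hochberg over all 10532 genes, and folds include the pseudocount of 1. The code was tested on simulated data. Tables and plots used Python 3.11.15, pandas 2.3.3, numpy 2.4.6 and matplotlib 3.10.9. Gene lists, members and the 18 libraries were chosen with earlier results of these data known. The naming rule took all 10 genes, from each list the 3 with the smallest p for genotype, and for Pck1, G6pc, Irs2 and Igfbp1 the 3 genes most correlated within groups. Exceptions are marked, and 1 gene that the rule names is not reported here, although list counts include it. Alternatives were the pseudocount, filters, median-of-ratios scaling, quantile normalization, a replicate block, no variance trend, the 18 libraries and leaving out each library. A length-trend covariate was added after seeing the data.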

Additional observations from a re-analysis of the deposited data

Results flagged for a closer look

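Of 40 groups of 6 libraries (10 genes in 4 groups), 3 held a library whose distance from the nearest other library exceeded Dixon's 95% limit, and chance alone gives about 1 in 20. Fbp1 in WT set 2 had its lowest value, 83.31 FPKM, in replicate 6, and Fbp1 in L2d13 set 2 its lowest, 431 FPKM, in replicate 3. Both are among the 6 libraries that stood apart. Igfbp1 in WT set 2 had its highest value, 492.4 FPKM, in replicate 2, which is not among them. Without that library the set 2 difference of Igfbp1 was 1.44 (adjusted p 0.00309 in limma).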

How the results depend on the processing

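For single genes 628 alternative values were computed. Of these 559 kept their sign and side of the threshold, 15 lost a call, 15 gained one and 39 changed sign, none of which was called in either fit. Within the 18 libraries the differences that turned were Pck1 in set 4 (0.046), G6pc over both sets (-0.11), G6pc between the WT sets (0.11), Fbp1 for the difference between sets (-0.39), Fbp1 between the WT sets (0.10), Ppargc1a for the difference between sets (-0.058), Insr for the difference between sets (-0.18), Insr between the WT sets (0.18) and Irs2 in set 4 (-0.51). With median-of-ratios scaling they were G6pc over both sets (-0.077), G6pc in set 2 (-0.027), Fbp1 between the L2d13 sets (0.085), Pcx for the difference between sets (0.054), Foxo1 between the L2d13 sets (0.0033), Insr in set 2 (-0.030), Insr between the WT sets (0.10) and Irs1 between the L2d13 sets (0.028). With quantile normalization they were Pcx for the difference between sets (0.075), Insr in set 2 (-0.0056), Insr between the WT sets (0.068) and Irs1 between the L2d13 sets (0.035). With the library length trend as a covariate they were Pck1 in set 4 (0.015), Fbp1 for the difference between sets (-0.24), Insr for the difference between sets (-0.051), Insr between the L2d13 sets (-0.022), Insr between the WT sets (0.029) and Irs2 in set 4 (-0.21). With a library left out the ranges that crossed 0 were Pck1 in set 4 (-0.12 to 0.0011), G6pc over both sets (-0.037 to 0.13), G6pc in set 4 (-0.26 to 0.063), Fbp1 for the difference between sets (-0.16 to 0.49), Fbp1 between the WT sets (-0.63 to 0.023), Pcx for the difference between sets (-0.17 to 0.099), Ppargc1a in set 2 (-0.010 to 0.28), Insr for the difference between sets (-0.040 to 0.067), Insr between the L2d13 sets (-0.030 to 0.052), Insr between the WT sets (-0.048 to 0.059), Irs1 between the WT sets (-0.038 to 0.17) and Irs2 between the WT sets (-0.16 to 0.19). The cause was not tested.

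Over both sets 3 of the 10 genes were called, against 1 within the 18 libraries, 2 (1 higher, 1 lower) without the filter and with the length trend, 2 (0 higher, 2 lower) with both other scalings and 2 to 5 with a library left out. In set 2 the count of 2 became 1 without the filter, with median-of-ratios scaling and with quantile normalization, 4 with the length trend and 0 to 2 with a library left out. The count of 1 in set 4 ran from 1 to 2, and that of 0 for the difference between sets from 0 to 1. Between the L2d13 sets the length trend gave 3, not 1. With median-of-ratios scaling the calls over all genes went from 2730 higher and 512 lower to 1128 and 1162. Filtering at an FPKM of 5 left Irs1 and Ppargc1a untested. No gene of the 10 failed the filter, so no permutation test was run. Depth is unknown, and the low FPKM of Ppargc1a, Irs1 and Irs2 limits their precision.

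Replicate numbers did not pair the samples. Same-numbered libraries of the genotypes correlated between -0.60 and 0.26 after group means were removed, 4 of 12 above 0.1, and 1 of 12 was most like its own number. With the replicate block 3 of the 10 genes were called over both sets, 1 in set 2, 1 in set 4 and 0 for the difference. The calls over all genes in set 2 went from 1364 higher and 224 lower to 671 and 136.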

Other observations

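The genes whose level within groups was most like that of a member over the 24 libraries were, for Pck1, Fam222a (Pearson r 0.71), the kinase Mknk2 (0.71) and the heparan sulfate proteoglycan Sdc4 (0.69). For G6pc they were the Mediator subunit Med28 (0.80), the late endosomal GTPase Rab7 (0.76) and Dcaf11 (0.76). Irs2 was most like the phospholipase Pnpla8, Dip2c and the transcription factor Tcf12, each at 0.92, and Igfbp1 was most like C9orf72 (0.78), the glycogen-targeting subunit Ppp1r3g (0.72) and Metrn (0.71). Within the 18 libraries the 3 values for Irs2 were 0.88, 0.92 and 0.86, and those for Igfbp1 were 0.84, 0.85 and 0.63. Those for Pck1 were 0.74, 0.82 and 0.63, and those for G6pc 0.70, 0.57 and 0.64. All these genes were picked for the highest values in these libraries, and the 18 are part of the 24, so high values follow from the choice. They are descriptions over libraries that share library features such as the length trend, with which Irs2 had a correlation of 0.78. No test was made of them. Sdc4 was lower in L2d13, with 97.2 FPKM against 158 and a log2 difference of -0.66 (adjusted p 0.000209 in limma), whereas Pck1 was not called. Of the other genes named here, Fam222a was called lower, Med28, Dcaf11, Pnpla8 and Tcf12 were called higher, and the rest were not called.

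The ratio of G6pc to Pck1 was 0.295 ± 0.0614 (SD, n = 6) in L2d13 set 2, 0.225 ± 0.0690 in WT set 2, 0.166 ± 0.0508 in L2d13 set 4 and 0.168 ± 0.0617 in WT set 4.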
